A study of Mus musculus with 2 samples.

Results

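The cells described here are the neutrophils among immune cells flushed from the stomach lining of TxA23 mice and profiled by single-cell RNA sequencing. A cell barcode was taken as a neutrophil when it had at least 200 detected genes, at most 10% of its UMIs (unique molecular identifiers, each standing for 1 captured transcript molecule) from mitochondrial genes, at least 3 UMIs each of S100a8 and S100a9, and 0 UMIs of Cd3d, Cd3e, Cd3g and Cd79a. Of 32372 barcodes that passed the 2 filters on genes and mitochondrial UMIs, 54 met this gate, which is 0.167%. The levels of S100a8 and S100a9 chose the cells and are therefore not a finding.

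TxA23 mice carry a transgenic T cell receptor against a stomach autoantigen and develop autoimmune gastritis, a chronic inflammation of the acid-secreting mucosa. All mice of both groups were TxA23. At 3 months of age they received a subcutaneous osmotic pump holding 200 uL, which was left for 4 weeks. In the IL-27 group (3 females) the pump held 800 ng of recombinant IL-27, made as p28 covalently linked to EBI3, at 4 ug/mL, and in the PBS group (1 female and 1 male) it held PBS alone. Live CD45+ cells, those that excluded propidium iodide, were sorted from the mucosa and captured with a 10x Genomics 5' kit. Each group was deposited as 1 pooled library, so no test between the groups is possible, no p-value is given, and every interval below covers counting error only. Sex is not balanced between the groups, and only the PBS group holds a male.

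Neutrophils are short-lived granulocytes made in the bone marrow that enter inflamed tissue in response to chemokines read by Cxcr2. They fill their granules during development, in the order of primary, secondary and tertiary granules, so the transcripts for granule proteins mark the stage of a cell. Mature neutrophils hold little RNA, stop dividing, depend on G-CSF signalling through Csf3r, and can be switched in tissue to make interleukin-1 beta and chemokines or to answer interferons. IL-27 is a cytokine of p28 and EBI3 that binds a receptor of Il27ra and Il6st (gp130), signals through JAK kinases and STAT3, and can raise Socs3, a feedback inhibitor of gp130 and G-CSF receptor signalling.

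The neutrophils differed among themselves in several genes, among them the chemokine gene Cxcl2 (GENCODE M21 on mm10, chr5:90903871-90905938, plus strand) and the ubiquitin-like interferon response gene Isg15 (chr4:156199424-156200818, minus strand). The bases before their RefSeq starts are shown because these genes carry the 2 patterns described below, 1 inflammatory and 1 of interferon response. Each line gives the 150 bases before the start in build GRCm38.p6, read 5' to 3' on the gene's strand, at chr5:90903749-90903898 (plus strand) for Cxcl2 and chr4:156200819-156200968 (minus strand) for Isg15. Capitals mark matches to GGG, any 3 bases and TTCC, a pattern like the site of NF-kB, in Cxcl2 and to GAAA, any 2 bases and GAAA, a pattern like the interferon-stimulated response element, in Isg15.
Cxcl2: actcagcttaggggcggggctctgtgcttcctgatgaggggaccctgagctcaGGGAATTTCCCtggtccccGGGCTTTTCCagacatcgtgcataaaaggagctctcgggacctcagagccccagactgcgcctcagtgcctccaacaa
Isg15: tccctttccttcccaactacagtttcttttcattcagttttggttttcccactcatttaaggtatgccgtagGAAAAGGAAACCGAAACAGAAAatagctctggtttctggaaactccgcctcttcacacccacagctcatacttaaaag
Counting both strands, Cxcl2 held 3 matches to the NF-kB-like pattern, of which 2 overlapped, and 0 to the other, and Isg15 held 3 overlapping matches to the interferon-type pattern and 0 to the other. The end of the Cxcl2 window runs into the start of the GENCODE gene model, which begins upstream of the RefSeq start. Among 32851 RefSeq promoters of this length, 3.05% held the NF-kB-like pattern and 1.59% the interferon-type one. A match is a string of letters and was not tested for binding.

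The libraries held 20897 barcodes (IL-27) and 12276 (PBS), with 80121995 and 43501501 UMIs. Barcodes carry a number after the cell sequence, 1 to 3 in the IL-27 library and 1 to 2 in the PBS library, and sets with the same number are called wells here. The labels do not say that a well is a mouse, so wells are given as values and are not used as replicates. Transcripts of Y-linked genes were found in PBS well 2 only (3074 UMIs), and 3 of its neutrophils held such a UMI. Values without PBS well 2 thus compare wells that all lack these transcripts, while male sex and that well cannot be told apart. The libraries had 117 barcode sequences in common, 1 of them the barcode of a neutrophil, and no sequence occurred more than 1 time among the neutrophils. A doublet caller marked 0 of the 54 neutrophils. It marked between 1.58% and 4.17% of barcodes in the other wells but 0.0183% in PBS well 2, where it did not work.

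1 neutrophil stood apart from the others before any comparison. It came from IL-27 well 1 and held 5984 UMIs and 2026 detected genes, against 2775 UMIs in the next deepest neutrophil. It carried all 38 Crip1 UMIs of the neutrophils, all 9 UMIs of the monocyte chemokine receptor Ccr2, 7 of 16 UMIs of the monocyte surface gene Ly6c2, and the only UMI of Fn1. It also held 92 UMIs of S100a8, 194 of S100a9 and 3 of Csf3r, and none of Hdc. Results that rest on it are given with and without it.

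The IL-27 library gave 29 neutrophils among 20579 barcodes past the cell filters, or 0.141% (exact Clopper-Pearson 95% interval 0.0944 to 0.202), and the PBS library 25 of 11793, or 0.212% (0.137 to 0.313). The ratio of the shares was 0.665 with an interval of 0.376 to 1.18, so no difference in share was detectable at this number of cells. By well the share was 0.199%, 0.116% and 0.0998% with IL-27 (wells 1 to 3) and 0.126% and 0.312% with PBS (wells 1 and 2). PBS well 1 lay among the IL-27 wells and PBS well 2 above them, and without PBS well 2 the ratio was 1.12.

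Macrophages and monocytes were gated as barcodes with at least 1 UMI each of Csf1r and Lyz2. The sum of their S100a8 and S100a9 UMIs was below 3, and they held no Flt3, Cd3 or Cd79a UMI. They numbered 51 (0.248%) with IL-27 and 58 (0.492%) with PBS, a ratio of 0.504 (0.339 to 0.747). This class too was uneven between wells, at 0.291%, 0.183% and 0.257% with IL-27 and 0.221% and 0.807% with PBS, and 44 of the 58 PBS cells came from PBS well 2. Against the sum of neutrophils, macrophages and gated dendritic cells, neutrophils were 26.4% with IL-27 (18.4 to 35.6) and 24.0% with PBS (16.2 to 33.4). Within the gated myeloid cells the neutrophil share thus differed by less than its counting error. The labels do not give the number of live cells sorted, so these are shares of barcodes and not numbers of cells in the tissue.

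**Figure D1:**
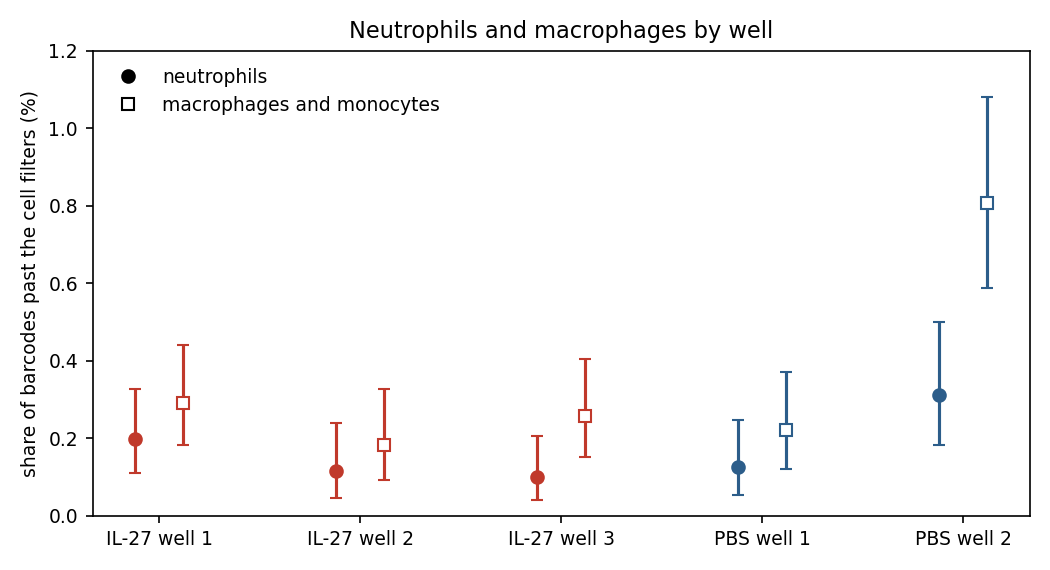
Share of barcodes past the cell filters (y axis, percent) that met the neutrophil gate (filled circles) or the macrophage and monocyte gate (open squares) in each well, with exact 95% binomial intervals. Neutrophils ranged from 0.0998% in IL-27 well 3 to 0.312% in PBS well 2, and the macrophage share was 0.807% in PBS well 2 against 0.183% to 0.291% in the other 4 wells.

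The S100a8 and S100a9 thresholds cut few borderline barcodes, while the Cd3 and Cd79a terms set aside many that met them. Within the 54 neutrophils S100a8 ran from 3 to 303 UMIs (median 45.5) and S100a9 from 7 to 370 (median 70.5), and 4 cells had 5 or fewer UMIs of S100a8. These 4 cells had 8, 17, 16 and 13 UMIs of S100a9, and each held Csf3r (9, 1, 3 and 5 UMIs) and Cxcr2 (3, 1, 6 and 9 UMIs) and 0 of Csf1r. On the other side, 0 barcodes had 1 or 2 UMIs of both genes, and 13 barcodes had some S100a8 or S100a9 UMI without meeting the gate, with medians of 1 and 0 UMIs. Another 29 barcodes met the S100a8 and S100a9 thresholds but were set aside for a UMI of Cd3 (18 barcodes) or Cd79a (12 barcodes). Of these, 28 held Csf3r, 15 had only 1 such lymphocyte UMI, and 14 came from PBS well 2. Allowing that 1 UMI would raise the counts to 35 neutrophils with IL-27 and 34 with PBS. Whether those barcodes are neutrophils with free lymphocyte RNA or pairs of cells was not tested.

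The neutrophils held little RNA. Their UMIs ran from 557 to 5984 with a median of 1383, and their detected genes from 302 to 2026 with a median of 667.5, against medians of 3029 UMIs and 1331 genes over all barcodes past the filters. In all they contributed 80703 UMIs, 45662 with IL-27 and 35041 with PBS. Ribosomal protein genes gave 5.26% of neutrophil UMIs with IL-27 and 4.07% with PBS, against 29.7% and 28.1% over all barcodes of the same libraries. Mitochondrial UMIs were low as well, with a median of 0.370% per neutrophil, although 6 cells were above 5% and the highest was at 8.89%.

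The label was checked on genes that the gate did not use, although a gate on 2 neutrophil genes also selects the genes that go with them. Csf3r, the G-CSF receptor, was detected in 54 of 54 cells, and Cxcr2, the receptor for Cxcl2 and related chemokines, in 47 of 54. Levels are given in CPM, the gene's UMIs per 1000000 UMIs of all genes, summed over the cells of a library or well. Csf3r stood at 3970, 3930 and 4470 CPM over the IL-27 wells, against 2350 and 4230 CPM over the PBS wells. Cxcr2 stood at 1350, 1440 and 1750 CPM over the IL-27 wells, against 1850 and 1900 CPM over the PBS wells. Both genes were thus present in every well. Among the 9470 barcodes with a Cd3 UMI, which should lack these genes and had a median of 3933.5 UMIs, 0.391% held a Csf3r UMI and 0.222% a Cxcr2 UMI. With every cell thinned to 500 UMIs, which left out 0 neutrophils and 2 T cells, the shares were 88.9% of neutrophils against 0.180% of T cells for Csf3r and 57.4% against 0.0951% for Cxcr2.

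Other genes of mature neutrophils were found in most cells. Mxd1, a repressor that opposes Myc, was detected in 47 of 54 cells, Hdc, the enzyme that makes histamine, in 44, the resistin family gene Retnlg in 35, and Mmp9, the gelatinase of tertiary granules, in 34. Msrb1, a methionine sulfoxide reductase, was at 7310 CPM with IL-27 and 8820 with PBS. Ly6g, the antigen by which mouse neutrophils are usually sorted, was detected in only 4 cells (2 UMIs in each library), so its transcript alone would have missed nearly all of the gated cells.

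The granule genes split by stage. Of 6 primary granule genes, 5 had no UMI in any neutrophil (myeloperoxidase Mpo, the serine proteases Elane, Prtn3 and Ctsg, and Ms4a3), and Nkg7 had 1 UMI. The secondary granule genes Ltf (lactoferrin) and Camp (cathelicidin) and the genes Chil3, Fcnb and Itgb2l were also without a UMI, and Ngp had 3. For a gene with no UMI the depth allows up to 37.2 CPM over the 54 cells. Lcn2, the siderophore-binding protein lipocalin 2, was found in 22 cells at 920 CPM with IL-27 and 571 with PBS. Mmp8 was at 438 and 342 CPM, and Mmp9 at 1010 and 1140 CPM. The granule genes with the most UMIs were therefore Mmp9, Lcn2, Slpi and Mmp8, and the primary granule genes were nearly without UMIs. Of 10 proliferation genes, 9 had no UMI, Mki67 and Top2a among them, and Tubb5 had 2.

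Most markers of other cells were at or near 0, with macrophage and monocyte genes as an exception. Among 14 macrophage and monocyte genes, 8 were detected and 6 were not, and the complement genes C1qa, C1qb and C1qc and the surface gene Ms4a7, which mark macrophages, were at 0 in all 54 cells. The summed level of this list was 2230, 722 and 194 CPM over the IL-27 wells, against 1180 and 259 CPM over the PBS wells. It was 7340 and 9170 CPM in the gated macrophages of the IL-27 and PBS libraries. Csf1r, which the macrophage gate required, had 8 UMIs in the neutrophils, at most 1 per cell. The macrophage and monocyte list had no UMI in 34 of the 54 neutrophils. It was highest in the deepest cell, with 45 UMIs (0.752% of the cell's UMIs), of which 26 were of the lipid carrier gene Apoe, 9 of Ccr2 and 7 of Ly6c2. The next highest cell, in PBS well 1, was at 0.403%, with 8 UMIs, all of Apoe. Of 9 dendritic cell genes only Ccr7 had a UMI, with Flt3 and Xcr1 at 0, and of 12 T cell genes Trac, Trbc1 and Trbc2 were at 0. Epx and Prg2 of eosinophils, Epcam of epithelium and all 7 erythroid and platelet genes were at 0. Siglecf had 1 UMI, and the gastric genes Tff1 and Gkn1 had 2 UMIs each, all in IL-27 well 1. The list of 10 B and plasma cell genes had no UMI in 26 of 29 IL-27 neutrophils and 19 of 25 PBS neutrophils.

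**Figure D2:**
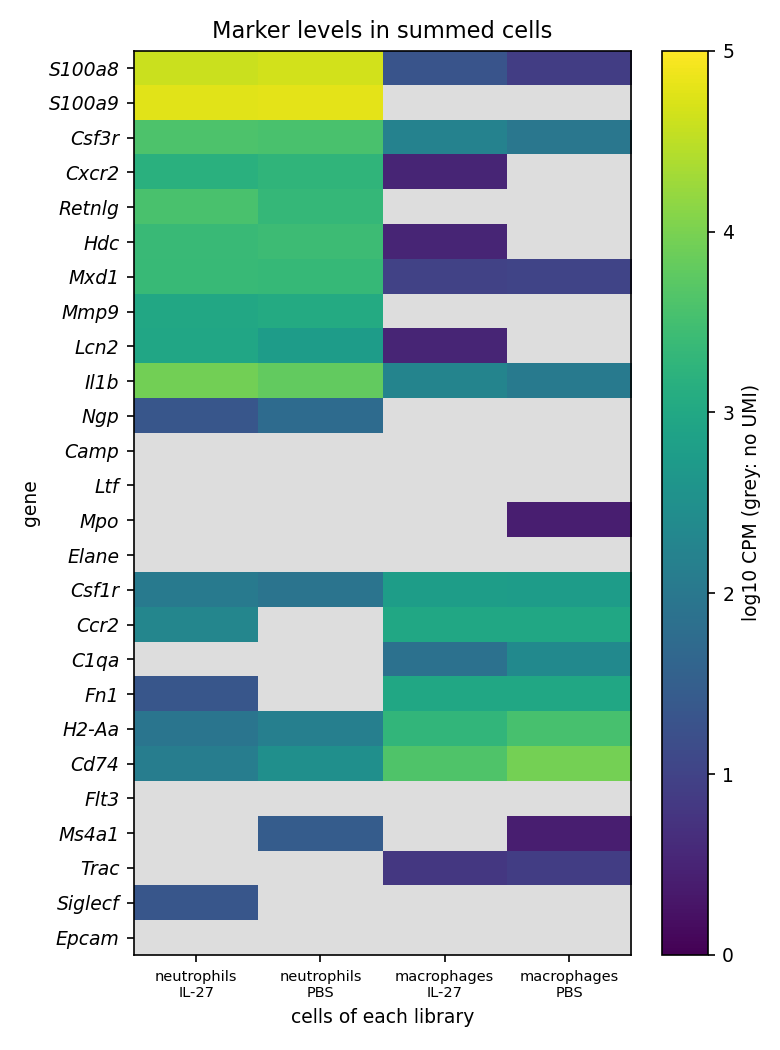
Level of marker genes (rows) in the summed neutrophils and macrophages of each library (columns), coloured by log10 CPM, with grey for no UMI. Csf3r was at 4070 and 3600 CPM in neutrophils against 166 and 95.7 CPM in macrophages, and C1qa had no UMI in neutrophils. S100a8 and S100a9 were used to choose the cells.

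The gated macrophages of the same library were the nearest class for comparison. Since the gates place S100a8 and S100a9 high in one class and low in the other, differences between the classes are a description with no test. Of 3537 genes with at least 30 UMIs over both classes and libraries together, 143 (4.04%) were at least 4-fold higher in neutrophils in both libraries. Another 456 (12.9%) were at least 4-fold lower in both. On a scale of log2(CPM + 10) the median gene differed by -0.54 (IL-27) and -0.58 (PBS). The gated macrophages held more RNA, with median UMIs of 6544 and 6610.

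Highest over macrophages, beside the gate genes, were Retnlg, Hdc, Cxcl2, Cxcr2, Mxd1 and Mmp9, followed by Ifitm1, Lrg1, G0s2, Wfdc21, Hcar2, Stfa2l1 and Lcn2. Retnlg was at 3700 CPM in IL-27 neutrophils and 2140 in PBS neutrophils and was not detected in macrophages. Hdc was at 2500 and 2710 CPM against 3.25 and 0 CPM in macrophages. Lrg1, a secreted leucine-rich glycoprotein, was at 1070 and 885 CPM, and Hcar2, the receptor for niacin and ketone bodies, at 986 and 628 CPM, and both were without a UMI in macrophages. Of the 16 identity genes measured in this comparison beside the gate genes, 15 were at least 4-fold higher in both libraries.

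The 10 genes furthest below macrophages included Cd74, H2-Eb1 and H2-Aa of MHC class II presentation. H2-Aa, a chain of MHC class II, was at 87.6 and 143 CPM against 1970 and 3540 in macrophages, and Cd74, the invariant chain, at 131 and 314 CPM against 4150 and 8940. H2-Eb1 had 2 UMIs in the 54 cells. In all, 6 of 7 genes of MHC class II presentation were at least 4-fold lower. Anxa5, the receptor genes Lrp1 and P2ry6, Ehd4 and the membrane genes Ms4a4c and Ms4a4a had no UMI in neutrophils, at macrophage levels of 189 to 388 CPM, and Fn1 (fibronectin) had 1. Of the 6 genes of the NADPH oxidase, which makes the oxidative burst, 0 were 4-fold higher and 1 was lower, Cybb, at 197 and 57.1 CPM against 1090 and 1010. Its partner Cyba (1380 and 1600 CPM against 1400 and 1500) was not past the 4-fold line.

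Inflammatory genes ranged from presence in every neutrophil to presence in a few. Il1b, the gene of interleukin-1 beta, was detected in 54 of 54 cells, with 1 to 61 UMIs per cell and a median of 7. It stood at 5060, 8190 and 16700 CPM over the IL-27 wells, against 9250 and 4970 CPM over the PBS wells, and at 182 and 114 CPM in the macrophages of the IL-27 and PBS libraries. The levels of the groups overlapped, with IL-27 well 3 highest and PBS well 2 lowest, and the fold between the libraries was not past 2 (log2 0.41). In T cells 0.496% of barcodes held an Il1b UMI, and after thinning 0.169%, against 81.5% of neutrophils.

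Cxcl2, which draws further neutrophils through Cxcr2, was by contrast confined to 7 of the 54 cells, with 38, 16, 26, 7, 1, 5 and 38 UMIs. It was in 2 of 7 cells of IL-27 well 2, 3 of 7 of IL-27 well 3 and 2 of 8 of PBS well 1, and in 0 of 15 cells of IL-27 well 1 and 0 of 17 of PBS well 2. The zeros allow shares of up to 20% and 17.6%. Cells with Cxcl2 were thus seen under both treatments and in 3 of the 5 wells. The level was 0, 4330 and 3300 CPM over the IL-27 wells, against 3620 and 0 CPM over the PBS wells. The difference between libraries, log2 0.65, was -0.90 without PBS well 2 and 7.60 without PBS well 1, so its direction depended on which well was left out.

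The 7 cells had other transcripts in common, which are given as a description because the cells were chosen by Cxcl2 after its values were seen. G0s2, an inhibitor of fat breakdown, was in 7 of 7 cells with Cxcl2 and 10 of 47 without. Socs3 was in 7 of 7 against 16 of 47, Isg15 in 7 of 7 against 15 of 47, and the lactate exporter Slc16a3 in 7 of 7 against 14 of 47. Cd14, the co-receptor for endotoxin, was in 6 of 7 against 7 of 47, Acod1, the enzyme that makes itaconate, in 6 of 7 against 6 of 47, and the interleukin-1 receptor antagonist Il1rn in 6 of 7 against 22 of 47. These genes were thus in a larger share of the cells with Cxcl2. The interferon response genes Rtp4 (2 of 7 against 20 of 47) and Irf7 (2 of 7 against 16 of 47) were not. Since the 7 cells came from 3 wells, the same counts were taken against the 15 cells without Cxcl2 of those wells: G0s2 was in 5 of the 15, Socs3 in 7, Slc16a3 in 7, Cd14 in 5, Acod1 in 4, Il1rn in 8 and Isg15 in 10. The gap was smallest for Isg15 and Il1rn. Il1b had a median of 32 UMIs in the cells with Cxcl2 and 6 in those without. Mmp9 went the other way, in 1 of 7 cells against 33 of 47, and Csf3r and Hdc were present in all 7. The cells with Cxcl2 had 557 to 2360 UMIs, against 632 to 5984 in the other neutrophils, so the shallowest neutrophil was among them.

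The wells followed the same division, in part because the same cells are counted again. G0s2 was at 262, 2490 and 19400 CPM over the IL-27 wells, against 3620 and 86.4 CPM over the PBS wells. Cd14 was at 87.3, 2650 and 2430 CPM over the IL-27 wells, against 3360 and 130 CPM over the PBS wells. Hcar2 was at 43.7, 1440 and 2530 CPM over the IL-27 wells, against 1600 and 130 CPM over the PBS wells. IL-27 well 1 and PBS well 2 were low for all 3 genes and the other 3 wells high, in a split that crossed the treatment. In IL-27 well 2 all UMIs of G0s2 (26 and 5) and Cd14 (31 and 2) came from its 2 cells with Cxcl2. In PBS well 1 the 2 cells with Cxcl2 held 11 and 26 of 43 G0s2 UMIs, and 19 and 17 Cd14 UMIs. In IL-27 well 3 cells without Cxcl2 also held G0s2 (27, 24 and 30 UMIs). These well values thus rest on few cells. The chemokine gene Cxcl3 was found in PBS well 1 only (18 UMIs in 2 cells), and Ccl4 was at 131 CPM with IL-27 and 628 CPM with PBS. Cxcl1, Il10, Il12a, Il23a and Il27 had no UMI.

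A list of 21 cytokine and chemokine genes took between 0.151% and 13.5% of a cell's UMIs. Its median per cell was 1.10%, 0.901% and 3.34% with IL-27 (wells 1 to 3) and 1.12% and 0.817% with PBS (wells 1 and 2). No cell of IL-27 well 1 was above the highest cell of PBS well 2 (2.31%), whereas 3 of 7 in IL-27 well 2, 4 of 7 in IL-27 well 3 and 3 of 8 in PBS well 1 were. The list held 5 genes with an NF-kB-like match before the start among the 16 with a RefSeq promoter (31.2%), against 3.51% of 27025 genes. The pattern was not particular to this list, since 7 of 32 interferon response genes (21.9%) held it too.

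Interferon response genes gave another pattern, in which PBS well 2 was the lowest by summed level, though not in every gene. Isg15 was detected in 22 of 54 neutrophils, in 5, 5 and 6 cells of the IL-27 wells and 6 cells of PBS well 1, and in 0 of 17 cells of PBS well 2. Its level was 655, 1280 and 2620 CPM over the IL-27 wells, against 2770 and 0 CPM over the PBS wells. Rtp4, a chaperone for membrane receptors, was at 829, 1200 and 389 CPM over the IL-27 wells, against 1680 and 86.4 CPM over the PBS wells. Irf7, a transcription factor of the interferon response, was at 960, 722 and 194 CPM over the IL-27 wells, against 1680 and 86.4 CPM over the PBS wells. In each of the 3 genes PBS well 1 was the highest and PBS well 2 the lowest of all wells. The order was not shared by every gene, since Slfn4 was in 5 of 17 cells of PBS well 2 and 2 of 7 of IL-27 well 3. Isg15 was also found outside neutrophils: 20.7% of T cells and 46.8% of gated macrophages held it, and after thinning the shares were 25.9% of neutrophils, 4.31% of T cells and 8.26% of macrophages.

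Over 36 interferon response genes the median share of a cell's UMIs was 1.02%, 1.08% and 1.10% in IL-27 wells 1 to 3. In PBS wells 1 and 2 it was 1.55% and 0.734%. The highest cell reached 4.44%, 4.18% and 3.19% in IL-27 wells 1 to 3, and 7.83% and 1.22% in PBS wells 1 and 2. Above that highest cell of PBS well 2 lay 6 of 15, 2 of 7 and 3 of 7 cells of the IL-27 wells and 5 of 8 of PBS well 1. The summed level was 13900, 17700 and 15200 CPM over the IL-27 wells, against 25000 and 6870 CPM over the PBS wells. Between the libraries it was 15200 CPM with IL-27 and 13000 with PBS, and of the 10 members with at least 30 UMIs, 0 differed by 2-fold. The groups overlapped, since both the highest and the lowest well were PBS. A RefSeq promoter was found for 32 of the 36 genes, and 10 of these (31.2%) held the interferon-type pattern, against 1.85% of all genes and 1 of 16 cytokine and chemokine genes (6.25%). PBS well 2 is the well with Y-linked transcripts; whether the sex of the mouse or anything else about that well bears on the level was not tested.

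**Figure D3:**
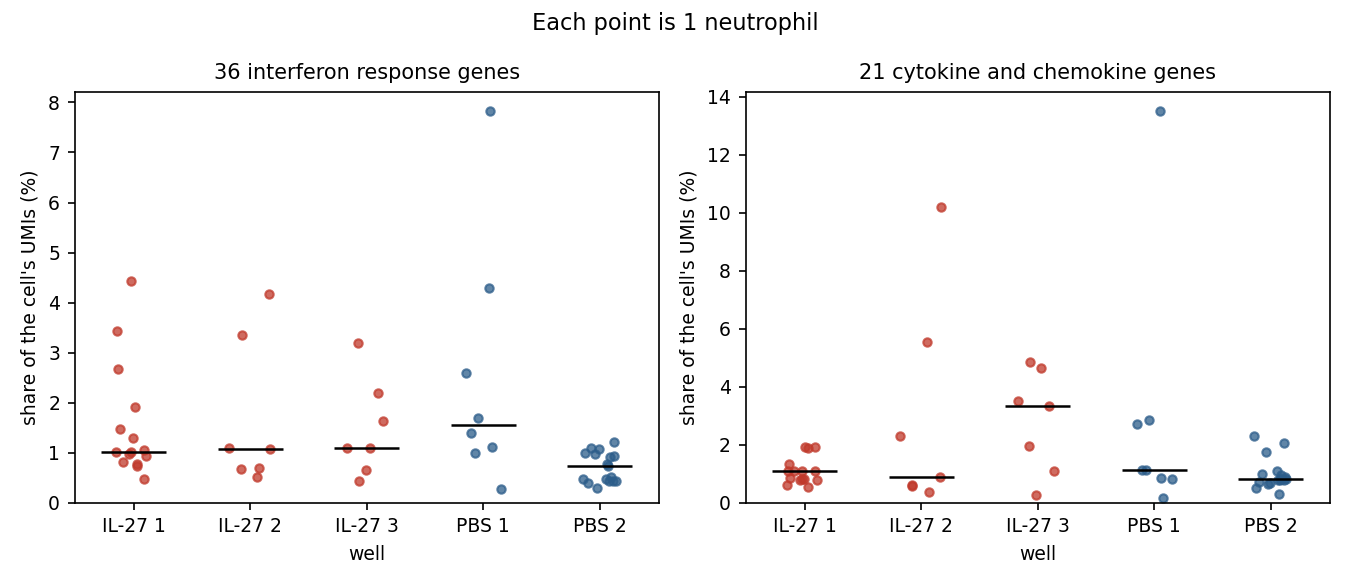
Share of each neutrophil's UMIs (y axis, percent) from 36 interferon response genes (left) and 21 cytokine and chemokine genes (right), by well, with a line at the median of the well. Cells of PBS well 2 reached 1.22% (left) and 2.31% (right), below the highest cells of PBS well 1 at 7.83% and 13.5%.

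The comparison of neutrophils between IL-27 and PBS mice asks whether the infused cytokine went with a change in these cells. The receptor is given first, since a cell needs it to answer IL-27 directly. Il27ra had 0 UMIs in the 54 neutrophils, which allows a share of up to 5.56% of cells with a UMI and up to 37.2 CPM. In T cells it was in 55.2% of barcodes, and in 10.5% after thinning to 500 UMIs, the depth at which 0 of 54 neutrophils held it. In the gated macrophages Il27ra was in 4 of 109 cells (3.67%), and in 0 of 109 after thinning, so a thinned zero was not particular to neutrophils. The other chain, Il6st, had 1 UMI, which was in the deepest neutrophil, so without that cell neither chain had a UMI. Of the kinases and transcription factors below the receptor, Jak1 had 11 UMIs with IL-27 and 18 with PBS, and Stat3 9 and 14, both too few for the comparison. Socs1 had none.

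Socs3 (chr11:117966079-117970047, minus strand, mm10) was the only gene of the IL-27 signalling list that reached 30 UMIs, and it was higher with IL-27. It had 43 UMIs in 16 of 29 IL-27 neutrophils and 9 UMIs in 7 of 25 PBS neutrophils. Its level was 567, 722 and 2040 CPM over the IL-27 wells, against 420 and 173 CPM over the PBS wells. By CPM all 3 IL-27 wells lay above both PBS wells, with IL-27 well 3 the highest. The 95% intervals of IL-27 well 1 (302 to 970) and PBS well 1 (137 to 981) overlapped. By share of cells the groups overlapped. Socs3 was in 6 of 15, 5 of 7 and 5 of 7 cells of the IL-27 wells, and in 4 of 8 and 3 of 17 of the PBS wells. The libraries stood at 942 and 257 CPM, a ratio of 3.67 (exact conditional 95% interval 1.76 to 8.55, counting error only). On the log2 scale the difference of 1.83 became 1.14 without PBS well 2, 1.24 without IL-27 well 3 and 2.38 without PBS well 1. After thinning, 8 of 29 and 2 of 25 cells held Socs3, among them 3 of 15 in IL-27 well 1 and 2 of 8 in PBS well 1. The gene is also raised by G-CSF and by inflammatory cytokines. It was found in 7 of 7 cells with Cxcl2 and 16 of 47 without, and in 7 of the 15 cells without Cxcl2 in the same 3 wells. The source of the difference in Socs3 was not tested.

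Over all genes, 445 had at least 30 neutrophil UMIs. Of these, 34 (7.64%) were at least 2-fold higher with IL-27 and 4 (0.899%) at least 2-fold lower, and the median gene differed by log2 0.03. For scale, PBS well 1 against PBS well 2, which had the same treatment, gave 31 of 169 genes (18.3%) 2-fold higher and 26 (15.4%) lower. The wells of 1 group thus differed in a larger share of genes than the libraries did, although each well holds fewer UMIs. Without the deepest neutrophil 18 genes were higher and 6 lower, and 16 of the 34 stayed at least 2-fold higher. The count of higher genes was 59 without PBS well 1. The count of lower genes was 24, 8 and 9 without IL-27 wells 1, 2 and 3 in turn, and 16 and 22 without PBS wells 1 and 2.

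Part of the higher genes came from the deepest cell. Crip1, a LIM domain protein, had 38 UMIs with IL-27 and 0 with PBS, and all 38 came from that cell. Vim, the intermediate filament vimentin, was at 1820 CPM against 428, and 58.2% of its UMIs were of that cell. Tmsb10, which binds actin, was at 1270 CPM against 314, and 69.6% of its UMIs were of that cell. Without it, Crip1 had no UMI left, Vim was at log2 0.60 in place of 2.06, and Tmsb10 turned from log2 1.98 to -0.31. Of the 34 genes, 12 were ribosomal protein genes, and 0 of the 12 stayed 2-fold higher without that cell, against 16 of the 22 others. Lyz2, lysozyme, at 4690 CPM against 2170, fell from log2 1.11 to 0.11.

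Hspa8, a constitutive heat shock protein, was the highest of the genes found in several cells of both libraries. It had 35 UMIs in 11 IL-27 cells, 23 of them in the deepest cell, and 4 UMIs in 4 PBS cells. By well it was at 1350, 161 and 194 CPM with IL-27 and 84.1 and 130 CPM with PBS. Without that cell its log2 difference was 1.33 in place of 2.64, and without IL-27 well 1 it was 0.58.

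Other genes of the highest 10 rested on IL-27 well 3. G0s2, at 5190 CPM against 1280, was 4.04-fold higher (2.93 to 5.69), but at log2 -0.29 without IL-27 well 3, 0.52 without PBS well 2 and 5.75 without PBS well 1. Egr1, an immediate early transcription factor, was at 175, 0 and 2230 CPM over the IL-27 wells, against 252 and 173 CPM over the PBS wells, and turned from log2 1.52 to -0.77 without IL-27 well 3. Cox17, a copper chaperone of cytochrome oxidase, was at 306, 963 and 3690 CPM over the IL-27 wells, against 589 and 432 CPM over the PBS wells, and moved from log2 1.35 to 0.14. In these genes the IL-27 wells spread across the PBS values. Gadd45b, a stress-induced gene, was at 635 CPM against 228 and likewise overlapped, with IL-27 well 1 below both PBS wells.

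A smaller set was at least 2-fold higher and had all 3 IL-27 wells above both PBS wells. Of the 445 genes, 18 (4.04%) had the wells apart in that direction and 29 (6.52%) in the other, so this order alone was more frequent for lower genes. The set of both criteria held 8 genes: Socs3, Hspa8, Rap1b, Cd44, Itgb2, Ddx6, Eif5a and Rpl36. Rpl36, a ribosomal protein gene, went from log2 1.57 to 0.45 without the deepest cell and to 0.60 without IL-27 well 1. Eif5a, a translation factor, went from log2 1.30 to 0.41 without IL-27 well 2, and Ddx6, an RNA helicase, from 1.11 to 0.72 without PBS well 1 and 2.45 without PBS well 2. Rap1b, a small GTPase that activates integrins, was at 1130, 1200 and 972 CPM over the IL-27 wells, against 252 and 518 CPM over the PBS wells. Itgb2, the beta-2 integrin chain that neutrophils use to adhere, was at 437, 562 and 777 CPM over the IL-27 wells, against 252 and 259 CPM over the PBS wells. The even spread of Rap1b over 21 IL-27 cells and 11 PBS cells set it apart from the genes above, and its log2 difference stayed between 1.09 (without PBS well 1) and 2.10 (without PBS well 2). Cd44, the hyaluronan receptor, had a log2 difference of 1.24, between 0.86 and 1.64 with each well left out. Itgb2 had 1.06, and 0.88 without IL-27 well 3.

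**Figure D4:**
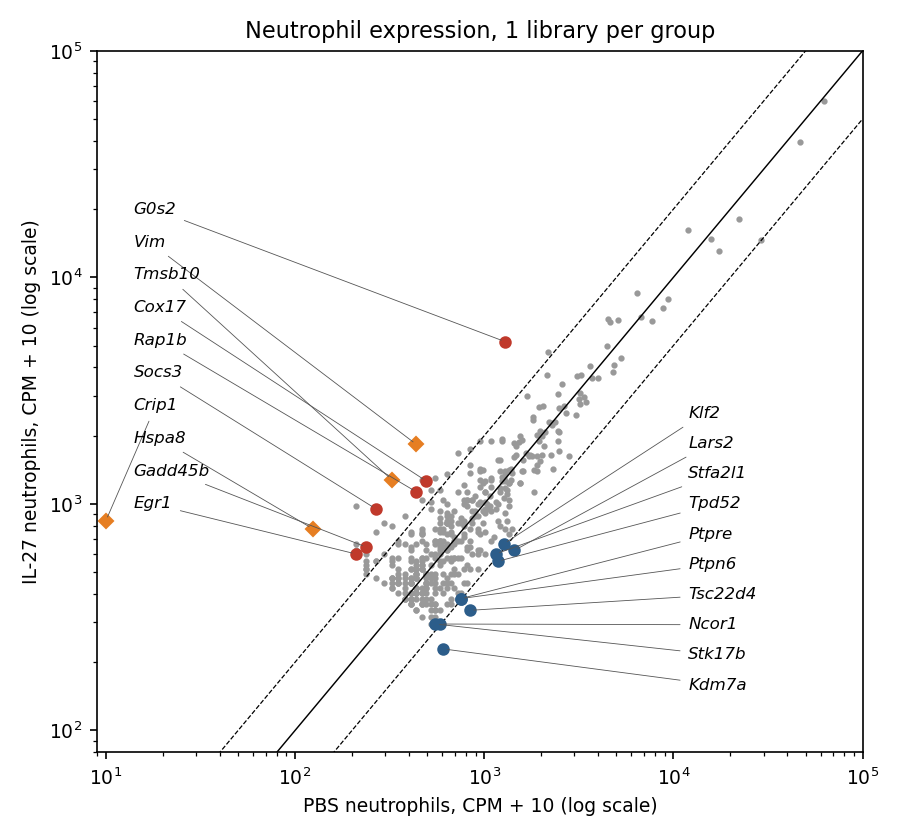
Level in PBS neutrophils (x axis) against IL-27 neutrophils (y axis), both as CPM + 10 on log scales, for the 445 genes with at least 30 UMIs, with the line of equality and the 2-fold lines dashed. Red points mark the 10 highest genes and blue points the 10 lowest, and orange diamonds those of the 10 highest with more than 50% of their UMIs in 1 cell. Crip1 lies at 0 CPM in PBS, and 34 genes lie on or above the upper dashed line against 4 on or below the lower one.

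The 4 genes at least 2-fold lower with IL-27 were Kdm7a, Tsc22d4, Lars2 and Tpd52. Tpd52, a vesicle trafficking protein, was at 524, 562 and 583 CPM over the IL-27 wells, against 1260 and 1120 CPM over the PBS wells. The well values of each group were close together and did not overlap, but they rest on few UMIs. These were 12, 7 and 6 with IL-27 and 15 and 26 with PBS, and intervals by well are not given for this gene. The PBS level was 2.14-fold higher (1.27 to 3.67), with 25 UMIs in 19 IL-27 cells against 41 in 24 PBS cells. Its log2 difference of -1.08 stayed between -1.19 and -1.02 with each well left out and was -0.94 without the deepest cell. Kdm7a, a histone demethylase, and Tsc22d4, of the TSC22 family, rested on PBS well 2, at log2 -0.20 and -0.03 without it, from -1.41 and -1.31.

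Lars2, the mitochondrial leucyl-tRNA synthetase, was at 742, 161 and 874 CPM over the IL-27 wells, against 2190 and 1040 CPM over the PBS wells, a difference of log2 -1.21, and -0.75 without PBS well 1. Of its 26 UMIs in PBS well 1, 20 came from 1 cell, and the other 6 stand at 574 CPM, within the IL-27 wells, so the separation of the wells rests on that cell. Gm42418, an annotated gene that overlaps ribosomal RNA sequence, was also lower with IL-27, at 14600 CPM with IL-27 and 28900 with PBS, or 1.46% and 2.89% of neutrophil UMIs. Its wells did not overlap (17300, 10800 and 13200 CPM against 20800 and 33100), but within the PBS library it was higher in well 2, where Lars2 was lower. In macrophages Gm42418 went the other way, at 30100 CPM with IL-27 and 13000 with PBS. The part of that RNA in the difference of Lars2 was not tested. The other 6 of the lowest 10 genes were within 2-fold: Ncor1, a corepressor of nuclear receptors, the phosphatase genes Ptpn6 and Ptpre, the stefin gene Stfa2l1, the transcription factor Klf2 and the kinase Stk17b. Ptpn6 turned to log2 2.02 without PBS well 2, and Klf2 to 0.16.

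**Figure D5:**
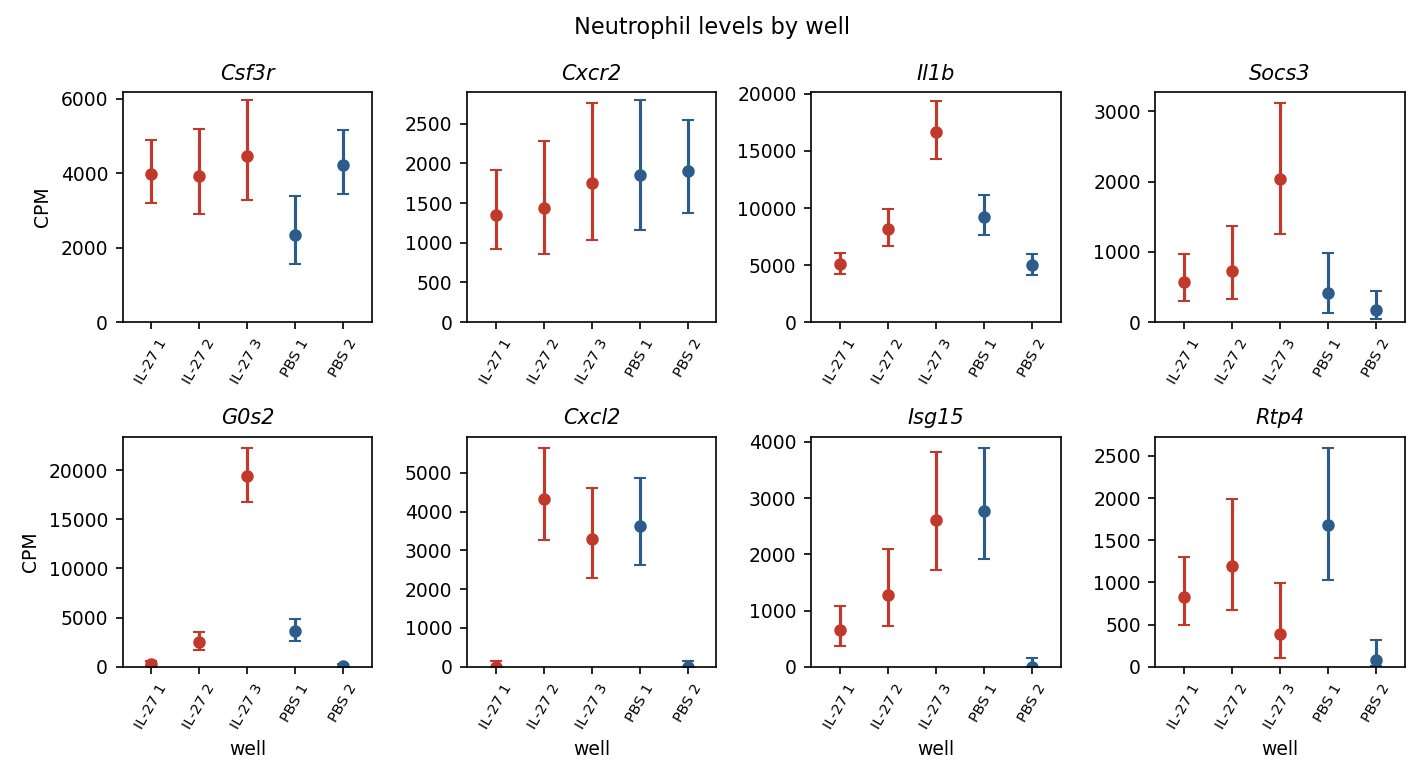
Neutrophil level (y axis, CPM) of 8 genes in each well, with exact 95% Poisson intervals for counting error. Csf3r and Cxcr2 were present in every well. Socs3 was above both PBS wells in the 3 IL-27 wells, but the intervals of IL-27 well 1 and PBS well 1 overlapped. G0s2 was at 19400 CPM in IL-27 well 3, and Cxcl2 and Isg15 had no UMI in PBS well 2.

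Most gene groups of neutrophil function did not move between the libraries by the 2-fold measure. The background rate was 7.64% higher and 0.899% lower. Of 17 identity genes with at least 30 UMIs, which include the gate genes, 3 were higher (G0s2, Acod1 and Lmnb1) and 0 lower, with a median of log2 0.07. Acod1 was at 43.7, 3210 and 3400 CPM over the IL-27 wells, against 1930 and 86.4 CPM over the PBS wells, and turned to log2 -0.22 without PBS well 2. Lmnb1, lamin B1, was at 87.3, 401 and 1750 CPM over the IL-27 wells, against 589 and 86.4 CPM over the PBS wells, and turned to log2 -0.36 without IL-27 well 3. These 3 genes thus had wells of both groups at the low end.

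Among 11 measured genes of adhesion and chemotaxis, 2 were higher (Itgb2 and Cxcr4) and 0 lower, with a median of log2 -0.21. Cxcr4, the receptor that holds neutrophils in the bone marrow and rises as they age, was at 131, 562 and 1460 CPM over the IL-27 wells, against 0 and 346 CPM over the PBS wells. It had log2 1.23, and 0.30 without IL-27 well 3, 0.65 without PBS well 1 and 5.80 without PBS well 2. The IL-27 wells of Cxcr2 and of Selplg, the ligand of P-selectin, lay below both PBS wells, at log2 -0.36 and -0.38, each short of 2-fold.

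In the other groups the counts were 0 or 1. Among 9 measured pattern recognition genes, 5 NADPH oxidase genes, 6 cytokine and chemokine genes, 6 glycolysis genes, 4 late granule genes, 3 survival genes and 3 growth factor and cytokine receptors, 0 were past 2-fold in either direction. Their medians were log2 0.10, 0.20, 0.38, 0.21, 0.51, -0.04 and -0.01 in that order. Among 11 immediate early genes, 1 was higher (Egr1), with a median of log2 -0.20. Junb, the most abundant of these, was at 3450, 4090 and 9330 CPM over the IL-27 wells, against 3280 and 5050 CPM over the PBS wells. Such genes also respond to tissue dissociation, and their summed level was 14800, 18600 and 35400 CPM over the IL-27 wells, against 19300 and 24700 CPM over the PBS wells, with IL-27 well 3, the well with the most G0s2 and Socs3, the highest. The part of dissociation in those 2 genes was not tested.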

How the data were processed

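Per the labels' protocols, CD45+ cells that excluded propidium iodide were captured with the 10x 5' v1.1 kit. The deposited values are raw UMI counts per gene and barcode in 1 filtered matrix per group. The submitters' processing notes name Cell Ranger 3.0.0 and mm10, while the matrix header names software version 3.1.0. Whether wells were scaled to equal depth when joined is not given in the sources used here. UMIs of neutrophils were summed per library and well and divided by the total over all genes (CPM). Differences are log2 of (CPM + 10), for genes with at least 30 UMIs summed over the cells compared. Named genes are the members of the lists, the 10 highest and 10 lowest between groups, and the 15 highest and 10 lowest against macrophages. The members and lists were chosen with earlier results of these data known. With 1 library per group nothing was tested. Intervals are exact at 95% (scipy 1.17.1) and were checked on simulated data. Doublets were called per well with Scrublet in scanpy 1.11.5, and TMM factors were computed with edgeR 4.0.16. Barcodes left out were those under 200 genes or over 10% mitochondrial UMIs. UMIs are independent molecules only as far as the authors' collapsing of reads was complete.
Results for some genes of the lists are not reported here.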

Additional observations from a re-analysis of the deposited data

How the results depend on the processing

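The ratio of neutrophil shares, 0.665, ranged from 0.452 to 1.12 with each well left out. The count of genes at least 2-fold higher with IL-27, 34, ranged from 27 to 59 with each well left out, and that of lower genes, 4, from 8 to 24. Genes at least 4-fold higher than in macrophages, 143, ranged from 109 to 132, and lower ones, 456, from 304 to 589. Other settings moved the counts as follows. A minimum of 10 UMIs gave 141 higher and 87 lower genes between groups and 229 higher than in macrophages, no minimum gave 2044, 1657 and 256, and thinning to 500 UMIs gave 8 and 2 of 129 genes, and 44 higher and 78 lower than in macrophages. The count of lower genes was 9 at 5% mitochondrial UMIs, 8 with at least 10 UMIs of both gate genes and 8 without cells holding other lineage UMIs. In alternatives chosen after seeing the data, 18 genes were higher without the deepest neutrophil and 8 were lower when 1 Cd3 or Cd79a UMI was allowed. In these settings the number of genes tested changed as well. Among the genes ranked highest or lowest and past 2-fold, directions turned for Tmsb10 (log2 -1.19 without IL-27 well 1, range with each well left out -1.19 to 2.50, and -0.31 without the deepest neutrophil) and, without IL-27 well 3, for G0s2 (-0.29, range -0.29 to 5.75) and Egr1 (-0.77, range -0.77 to 2.28). The cause was not tested. Of the 34 higher genes, 9, 3 and 2 turned without IL-27 well 1, IL-27 well 3 and PBS well 2, 0 without the other wells, and 5 without the deepest neutrophil. Genes short of 2-fold also changed sign without PBS well 2, among them Ptpn6 (2.02), Klf2 (0.16), Cxcl2 (-0.90), Isg15 (-1.12) and Il1b (-0.11). The remaining alternatives, TMM scaling, another pseudocount and totals without the gate or ribosomal genes among them, left the counts within 1.5 times. The depth limits what can be seen: a gene without a UMI could be at up to 65.7 CPM with IL-27 and 85.6 CPM with PBS. No paired analysis was possible because each group is 1 library and the labels give no replicate numbers.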
